A study of Mus musculus with 67 samples.

Results

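Globin genes and other genes of the red blood cell were followed in the cerebral cortex of 67 C57BL/6 mice, with 1 array for each mouse. The set was every probe on the array whose platform annotation gave a single gene symbol out of Hba-a1, Hba-a2, Hba-x, Hbb-y, Slc4a1, Car1 and Tfrc, which made 23 probes out of 8448, for 7 genes of the 4209 named in this way. Hba-a1 was represented by 12 probes, Hbb-y by 4, Hba-a2 by 3, and Hba-x, Slc4a1, Car1 and Tfrc by 1 each. The groups were 5 mice of 17-21 days and 5 of 33-44 days, all fed ad libitum (AL), then 9 mice under caloric restriction (CR) and 10 AL mice at 6 months, 10 CR and 10 AL mice at 16 months, and 8 CR and 10 AL mice at 24 months. Every mouse was C57BL/6, and each age and diet held males and females. The mice of 24 months were 704 to 743 days old on AL and 673 to 743 days on CR. All 3 CR males of that group were 673 days old, younger than every AL mouse in it. Comparisons with the 24 months CR group therefore carry this difference in age. CR mice had the full ration for 13 weeks, then 90%, then 75%, and finally 60% of it as a fortified feed until they were killed, so restriction began in young adulthood. Whether blood was washed out of the vessels before the cortex was taken is not given in the sources used here.

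Hemoglobin is a tetramer of alpha-like and beta-like globin chains, each holding a heme, and red cell precursors make it in very large amounts. In the mouse, Hba-a1 and Hba-a2 encode the adult alpha chain, while Hba-x (zeta globin) and Hbb-y (epsilon-y globin) encode chains of the primitive red cells of the embryo. Slc4a1 encodes band 3, the anion exchanger that also anchors the red cell membrane to its skeleton, Car1 encodes carbonic anhydrase I of the red cell, and Tfrc encodes the transferrin receptor, through which red cell precursors and also brain capillary endothelium take up iron. In brain tissue, globin transcripts can come from blood left in the vessels and from the low globin expression known in some neurons and glia. In pieces of whole tissue, fewer cells of a type and less RNA per cell cannot be told apart.

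The stretches of 120 bases just before the gene start are printed for an adult and the 2 embryonic globin genes, because probes of these genes carry most of the results. They were taken from RefSeq on GRCm38.p6, where the stretch of Hba-a1 lies at chr11:32283552-32283671 (plus strand), Hba-x at chr11:32276480-32276599 (plus strand) and Hbb-y at chr7:103853208-103853327 (minus strand). Capitals mark 4 short motifs known from globin promoters, on either strand, which are CCAAT (the box bound by NF-Y), CACCC (bound by KLF factors), TATAA (the core of a TATA box) and GATAA (bound by GATA factors).
Hba-a1: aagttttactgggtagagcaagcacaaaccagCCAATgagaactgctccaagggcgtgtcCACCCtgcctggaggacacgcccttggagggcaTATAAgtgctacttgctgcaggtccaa
Hba-x: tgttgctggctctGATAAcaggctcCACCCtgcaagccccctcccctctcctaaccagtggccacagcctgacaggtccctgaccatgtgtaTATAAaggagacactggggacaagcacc
Hbb-y: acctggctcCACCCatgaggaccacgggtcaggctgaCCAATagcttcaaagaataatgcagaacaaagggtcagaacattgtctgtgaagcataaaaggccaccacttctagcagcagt
Within the 250 bases before the start, CCAAT was present in 33.8%, CACCC in 52.0%, TATAA in 22.8% and GATAA in 22.6% of 32851 mouse promoters, so a match is a description of these letters and not of a factor bound there. The Hba-a1 and Hba-a2 promoters shared an unbroken run of 297 of their 300 bases. The transcripts of Hba-a1 and Hba-a2 are likewise close to identical, so signal on a probe of either gene cannot be assigned to that gene alone. Promoter entries were found for 5 of the 7 genes; Slc4a1 and Car1 are named only.

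The deposited value is a z-score, for which the authors centered and scaled each array's log intensities to SD units, so a difference of 1 is 1 SD of all probes on an array and is not a fold change. Arrays numbered from 46 up (22 mice) and below 46 (45 mice) formed a later and an earlier batch: the median correlation over all probes was 0.966 between arrays of the same group and batch and 0.903 across the batches. This split rests on the array numbers, since the sample titles name no batch. All 5 mice of 17-21 days lay in the earlier batch, while every other group spanned both. A male and a female array of 16 months AL (replicate 2 of each) were close to identical. They had r = 0.99975 over all probes and the same value at 11 of the 23 globin and red cell probes. The pair was counted as 1 mouse in the means of the age and diet groups. Both arrays entered the tests and the means over all 45 earlier arrays. For 24 months AL male replicate 2, the description repeats the entry of 33-44 days AL male replicate 1 and so names another animal than the title; it was kept by its title. The marker lists could hardly check the tissue, since 1 of 16 neuronal genes (Nefl, neurofilament light chain), 3 of 9 astrocyte genes (Slc1a3, Gja1 and Clu), 0 of 8 oligodendrocyte and 0 of 8 choroid plexus genes were measured.

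None of the 15 adult alpha-globin probes passed in any comparison of ages or diets, and their mean stayed near 0 while single probes differed in both directions. The mean over the 15 probes was -0.03 ± 0.09 at 17-21 days, -0.02 ± 0.11 at 33-44 days, -0.05 ± 0.12 at 6 months, -0.03 ± 0.12 at 16 months and, in the oldest AL mice, -0.05 ± 0.16 at 24 months (SD, n = 5, 5, 10, 9 and 10). At the same 3 adult ages it was -0.03 ± 0.12, -0.02 ± 0.11 and -0.06 ± 0.13 in CR mice (SD, n = 9, 10 and 8). The 8 group means spanned less than any of these SDs, and neighbors in their order do not differ beyond their spread. The wider split was between the batches: in 24 months AL mice the mean was 0.12 ± 0.08 in the later batch (n = 4) and -0.16 ± 0.05 in the earlier batch (n = 6), and in 6 months CR mice 0.16 ± 0.04 (n = 2) and -0.08 ± 0.05 (n = 7), without overlap in either group. At 33-44 days and 6, 16 and 24 months, AL means in the later batch were 0.05, 0.06, 0.08 and 0.12. Their SDs were 0.05 to 0.08 (n = 2, 3, 4 and 4). In the earlier batch AL means ran from -0.03 at 17-21 days through -0.07, -0.09 and -0.12 to -0.16. Their SDs were 0.05 to 0.11 (n = 5, 3, 7, 5 and 6). Each step was smaller than the SD at either age. The whole run, from -0.03 ± 0.09 at 17-21 days to -0.16 ± 0.05 at 24 months, was larger than either of these SDs. The ranges of these 2 ages overlapped slightly, at -0.13 to 0.04 and -0.25 to -0.12. CR means of the later batch fell, from 0.16 at 6 months through 0.09 to 0.08 at 24 months (n = 2, 4 and 3). Those of the earlier batch ran from -0.08 through -0.10 to -0.15 (n = 7, 6 and 5). After a correction for neighboring probes on the filter, the AL means of the later batch were 0.04, 0.04, 0.07 and 0.07. Those of the earlier batch still ran from -0.01 to -0.14. No test was run on these means.

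**Figure D1:**
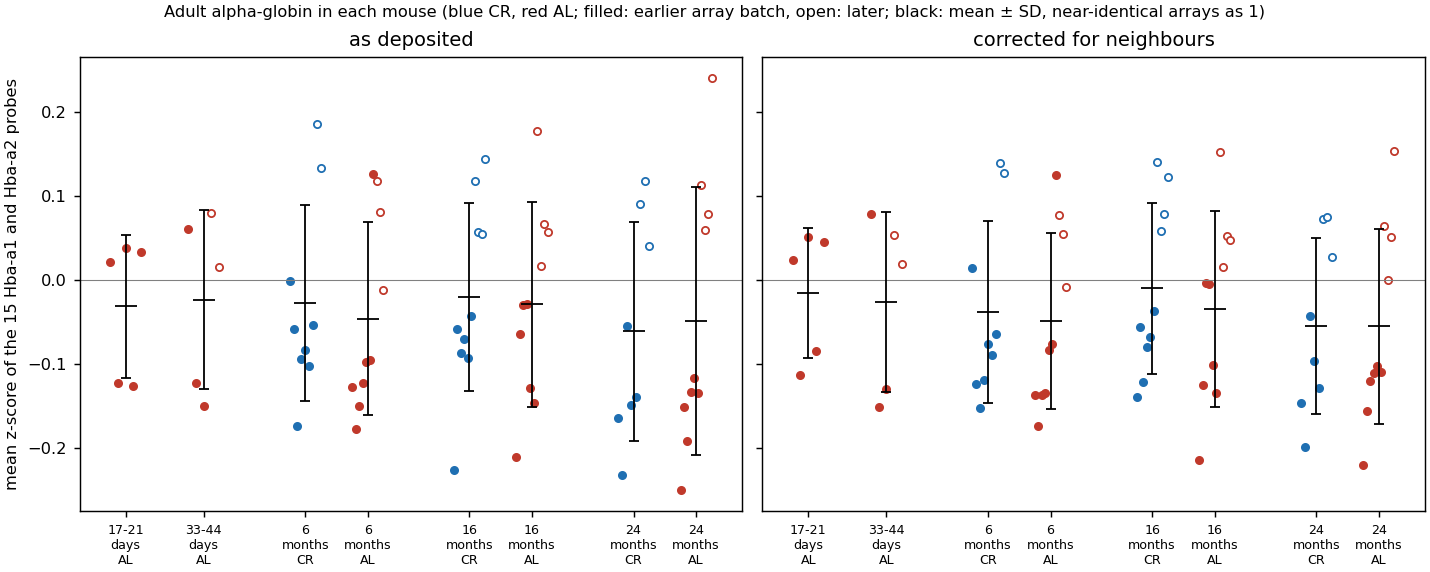
Mean z-score of the 15 Hba-a1 and Hba-a2 probes in each mouse (vertical axis, SDs of 1 array) by age and diet, as deposited and after a correction for neighboring probes on the filter, with CR in blue, AL in red, filled points for the earlier and open points for the later batch, and black bars for the mean ± SD. Groups overlap throughout, and the open points lie above all filled points of their group in 5 of the 7 groups that have both.

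The single probe of Hba-x gave means of 0.92 ± 0.12 at 17-21 days, 1.06 ± 0.32 at 33-44 days, 1.03 ± 0.13 at 6 months, 0.96 ± 0.15 at 16 months and 1.10 ± 0.10 at 24 months in AL mice, and 1.04 ± 0.12, 1.05 ± 0.12 and 1.01 ± 0.14 at 6, 16 and 24 months in CR mice (SD, n as above). The Car1 probe was spread more widely, from -0.69 ± 0.21 at 17-21 days to -1.0 ± 0.33 at 16 months in AL mice (SD, n = 5 and 9), and its batches stood apart, with -1.28 ± 0.15 in the 22 later arrays and -0.64 ± 0.15 in the 45 earlier ones (SD). The probe of Hba-a2 numbered 11536 behaved the other way, with 1.39 ± 0.13 in the later arrays and 0.82 ± 0.31 in the earlier ones (SD, n = 22 and 45). In all, 17 of the 23 probes had the higher mean in the later batch, as did 4417 of all 8448 probes. Of the 17, 10 were probes of Hba-a1 and 3 of Hba-a2, which share nearly the same transcript. The median size of the shift between batches was 0.222 for the 23 probes and 0.220 for all probes, close to the median range of the 8 age and diet means, which was 0.234 and 0.226.

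Expression at the youngest ages was compared first, between mice of 33-44 days and mice of 17-21 days, both AL. A probe of Hbb-y, the embryonic beta-like globin, was lower at 33-44 days, and it was the only one of the 23 to pass in any of the 15 comparisons (limma, Benjamini-Hochberg adjusted p under 0.05). Probe 10700 of Hbb-y had z-scores of -0.05, 0.10, -0.26, 0.12 and -0.31 in the mice of 33-44 days, against 0.44, 0.24, 0.38, 0.15 and 0.49 in the mice of 17-21 days. The 5 older mice all lay below the 5 younger ones, with 0.12 as the highest of the older and 0.15 as the lowest of the younger. The difference was -0.42 (SE 0.084, 95% interval -0.59 to -0.25, limma adjusted p = 0.0265). Of all 8448 probes, 0.0947% passed in this comparison, all of them lower at 33-44 days, and 0.947% had groups that did not overlap, 0.698% with the older mice lower, against 1 of the 23 probes in each case.

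A second Hbb-y probe, 10656, stood just outside the threshold. It had z-scores of -0.25, -0.34, -0.84, -0.22 and -0.79 at 33-44 days, against 0.01, -0.01, -0.03, -0.26 and 0.11 at 17-21 days. The groups overlapped through a single younger mouse at -0.26, and the difference was -0.46 (SE 0.112, limma adjusted p = 0.0559). The other Hbb-y probes, 10744 and 10788, differed by 0.05 and -0.04 (95% intervals -0.17 to 0.27 and -0.20 to 0.11), which do not overlap the interval of probe 10700 although all are annotated to the same gene.

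The probe of Slc4a1, band 3 of the red cell membrane, had z-scores of -0.51, -0.19, -0.35, -0.22 and -0.46 at 33-44 days, against 0.04, 0.02, 0.04, -0.31 and 0.14 at 17-21 days. All but 1 of the younger mice lay above all the older ones, and the difference was -0.34 (SE 0.101, limma adjusted p = 0.130). Among the 15 adult alpha-globin probes, 6 differences were above 0 and 9 below, from -0.49 at Hba-a1 probe 12176 to 0.41 at Hba-a2 probe 11536, with a median of -0.04. Probe 12176 had z-scores of 0.13, 0.53, -0.27, 0.46 and -0.32 at 33-44 days, against 0.76, 0.60, 0.49, 0.24 and 0.79 at 17-21 days, and the groups overlapped (adjusted p = 0.217). At an unadjusted p under 0.05, 4 of the 23 probes were lower and 0 higher, where 14.0% of all probes reached that p and 9.28% did so with the lower value at 33-44 days. Hba-x, Car1 and Tfrc differed by 0.16, -0.16 and -0.12, with 95% intervals that held 0.

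**Figure D2:**
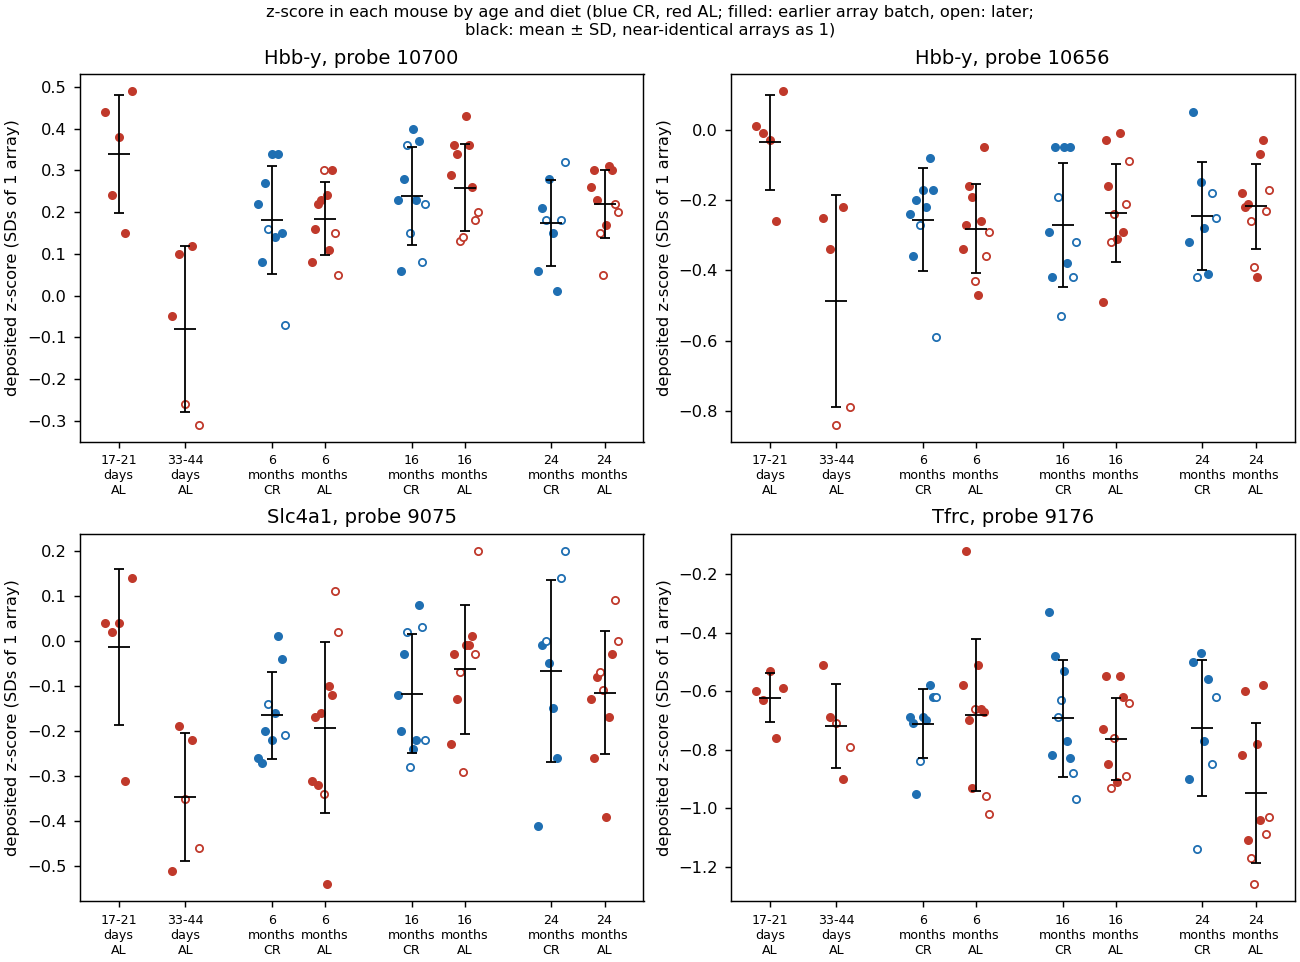
Deposited z-scores (vertical axes, SDs of 1 array) of both Hbb-y probes with the smallest p between the young ages, and of Slc4a1 and Tfrc, in each mouse by age and diet, with CR in blue, AL in red, filled points for the earlier and open points for the later array batch, and black bars for the mean ± SD. For Hbb-y probe 10700 the mice of 33-44 days lie at 0.12 or below and those of 17-21 days at 0.15 or above, and the lowest values at 33-44 days belong to the later batch.

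The direction of a difference followed the place of the probe on the filter in the low and the high rows. The order of probe numbers fits 16 blocks of 24 rows and 22 columns, and rows were grouped as 1 to 7, 8 to 16 and 17 to 24 after the data had been seen. In rows 1 to 7 all 8 globin and red cell probes were below 0 between the young ages, with a median of -0.37, and 85.4% of the 2456 other probes there were below 0 as well, with a median of -0.20. In rows 17 to 24, 3 of 9 were below 0 and the median was 0.15, against 20.7% of 2807 other probes and a median of 0.14. In rows 8 to 16, 4 of 6 were below 0 with a median of -0.04, against 46.8% of 3162 other probes and a median of 0.01. Hbb-y probe 10700 lies in row 7, where the median of the other probes was -0.20, and Hbb-y probe 10656 and Slc4a1 lie in row 5, where it was also -0.20. After each array was corrected by the mean deviation of the probes around each spot, the differences were -0.20 for Hbb-y probe 10700, -0.18 for probe 10656 and -0.08 for Slc4a1, and 0 of the 23 probes passed (smallest limma adjusted p = 0.635 for probe 10700).

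**Figure D3:**
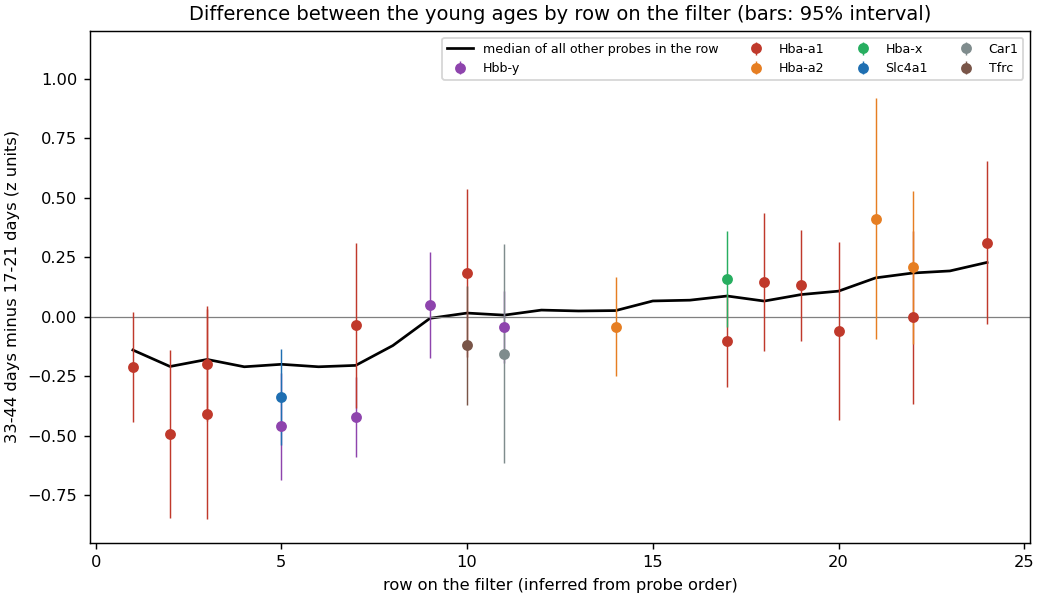
Difference between 33-44 days and 17-21 days in AL mice (vertical axis, z units) for each of the 23 probes against its inferred row on the filter, with 95% intervals as bars and colors for the genes; the black line is the median of all other probes in the row. Probes in rows 1 to 7 lie below 0 with a median of -0.37, and the line stays near -0.20 there and climbs above 0 in the high rows.

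The call for Hbb-y probe 10700 also rested on the mice and arrays included. The 2 mice of 33-44 days on later arrays had its lowest values, -0.26 and -0.31, and within the earlier batch alone the difference was -0.27 (adjusted p = 0.717), whereas with the batch as a block it was -0.38 (adjusted p = 0.0128) and Hbb-y probe 10656 and Slc4a1 also passed (adjusted p = 0.0485 for each), in a fit where 0.829% of all probes passed. With the array cycle as a block, a cycle being 1 of 5 runs of array numbers through the groups, 0 of the 23 passed (-0.36 and adjusted p = 0.0618 for probe 10700, 0.0118% of all probes), and with cycle and batch together only probe 10700 did (adjusted p = 0.0399, 0.249% of all probes). Leaving out 1 mouse at a time, it no longer passed without 33-44 days male replicate 1 (adjusted p = 0.0581), male replicate 3 (0.101) or female replicate 2 (0.994), or without 17-21 days male replicate 1 (0.224), male replicate 2 (0.0732) or female replicate 3 (0.202). The difference stayed between -0.53 and -0.32. Leaving out any of 3 other mice raised the count over the whole array: 3 of the 23 and 2.53% of all probes passed without 33-44 days male replicate 2, 4 and 5.22% without 33-44 days female replicate 1, and 3 and 0.852% without 17-21 days female replicate 2.

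Of the cells that blood or vessels would add, the white cell and platelet list had 1 of 20 genes measured (S100a9, a neutrophil protein), with a mean of -0.34 at 33-44 days and -0.51 at 17-21 days, and the endothelial list 1 of 14 (Cd34), with 1.51 and 1.54. The mural and meningeal list, cells of vessel walls and brain coverings, had 9 of 14 genes measured by 14 probes, of which 8 were below 0 and 6 above between the young ages, with a median of -0.08 and 0 past the threshold. At an unadjusted p under 0.05, 3 were lower at 33-44 days (Col1a1, Col3a1 probe 10132 and Igf2, by -0.22, -0.31 and -0.19) and 1 was higher (Dcn probe 15525, 0.43), while the other Col3a1 probes lay from -0.05 to 0.37. The mean over these 14 probes ran from 0.22 to 0.33 in mice of 33-44 days and from 0.24 to 0.32 in mice of 17-21 days, with overlap. Of the 4 astrocyte probes, 3 were below 0, with a median of -0.12, and Clu reached an unadjusted p under 0.05 (-0.30, adjusted p = 0.278). Their mean ran from -0.55 to -0.03 at 33-44 days and from -0.17 to 0.04 at 17-21 days, again with overlap. The part of any of these lists in the Hbb-y difference was not tested.

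From the young ages to 6 months, 0 of the 23 probes passed in either comparison, as did 0 of all 8448 probes (0%). Hbb-y probe 10700 had z-scores from 0.05 through a median of 0.19 to 0.30 in the 10 AL mice of 6 months, which overlapped both young groups. Its difference was 0.27 from 33-44 days (limma adjusted p = 0.611) and -0.16 from 17-21 days (adjusted p = 0.815). Hbb-y probe 10656 differed by 0.21 from 33-44 days (adjusted p = 0.875) and -0.25 from 17-21 days (adjusted p = 0.815). Slc4a1 differed by -0.19 and Hbb-y probe 10788 by -0.16 between 6 months and 17-21 days (adjusted p = 0.815 for each). For these comparisons the unadjusted p was under 0.05 for 2 and 4 of the 23 probes, and for 5.31% and 3.46% of all probes.

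Across the adult ages, Tfrc, the transferrin receptor, had the smallest unadjusted p of the set, and it did not pass. In AL mice its z-scores ran from -1.26 through a median of -1.03 to -0.58 at 24 months, against -0.93, -0.76 and -0.55 at 16 months and -1.02, -0.67 and -0.12 at 6 months (lowest, median and highest). The low end at 24 months lay below every AL mouse of the other adult ages, and the ranges overlapped. The difference was -0.27 between 24 and 6 months (SE 0.0864, 95% interval -0.44 to -0.09, limma unadjusted p = 0.00312, adjusted p = 1.00) and -0.21 between 24 and 16 months (adjusted p = 0.670). The first was -0.31 within the later batch and -0.22 within the earlier batch, and -0.17 after the correction for neighbors (adjusted p = 0.649, 0.973 and 0.999). In CR mice Tfrc ran from -1.14 through -0.70 to -0.47 at 24 months and from -0.95 through -0.69 to -0.58 at 6 months, a difference of -0.03 (95% interval -0.22 to 0.16). The difference between the diets in this change was 0.24 (95% interval -0.02 to 0.49, unadjusted p = 0.0722, adjusted p = 1.00). Without the 24 months AL male whose labels conflict, at -0.60, it was 0.29 (95% interval 0.03 to 0.54, unadjusted p = 0.0272, adjusted p = 1.00), and the AL differences of 24 months from 6 and 16 months were -0.32 and -0.25 (adjusted p = 0.999 and 0.578).

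No globin passed between adult ages. Hba-x had z-scores from 0.98 through a median of 1.08 to 1.25 at 24 months in AL mice, against 0.75, 0.91 and 1.15 at 16 months, with overlap and a difference of 0.15 (limma adjusted p = 0.709). Between 24 and 16 months in CR mice, Hba-a2 probe 10328 differed by -0.16 (adjusted p = 0.999), and between 16 and 6 months in AL mice, Hbb-y probe 10788 differed by 0.11 (adjusted p = 0.999). Over the 15 adult alpha-globin probes, the median difference between 24 and 6 months was -0.02 in CR mice and 0.00 in AL mice, with 5 and 7 of 15 above 0. In these 6 age comparisons 0% of all probes passed. In AL mice the unadjusted p was under 0.05 for 1, 2 and 1 of the 23 probes and for 3.04%, 6.57% and 2.89% of all probes between 16 and 6, 24 and 16, and 24 and 6 months. In CR mice it was so for 0, 1 and 0 of the 23 and for 2.33%, 4.15% and 3.42% of all probes.

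Between the diets, the 23 probes stayed within narrow limits. Over 6, 16 and 24 months together, the difference between CR and AL lay from -0.04 at Hba-a1 probe 12659 to 0.07 at Tfrc, with 14 of 23 above 0 and a median of 0.01. The 95% interval of a single probe reached 0.104 to either side at the median, and the outermost bound was 0.243, at Hba-a2 probe 11536. None of the 23 probes and none of all 8448 (0%) passed, and an unadjusted p under 0.05 was reached by 0 of the 23 and by 0.710% of all probes. At 24 months Tfrc had a mean of -0.73 ± 0.23 in CR mice (SD, n = 8), against -0.95 ± 0.24 in AL mice (SD, n = 10), a difference of 0.20 (95% interval 0.01 to 0.38, limma unadjusted p = 0.0386, adjusted p = 1.00), and the ranges overlapped; it was the only 1 of the 23 at this p, where 1.04% of all probes were. Tfrc differed between the diets by 0.05 at 16 months and -0.04 at 6 months. In males of 24 months, diet and age cannot be told apart, since the CR males were 673 days old and the AL mice at least 704 days. With both batches together, the mean of the adult alpha-globin probes differed between the diets by less than 1 SD at each age. Within the later batch at 6 months it was 0.16 ± 0.04 in CR mice and 0.06 ± 0.07 in AL mice (SD, n = 2 and 3), without overlap. Within the earlier batch it was -0.08 ± 0.05 and -0.09 ± 0.10 (SD, n = 7 and 7), with overlap.

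**Figure D4:**
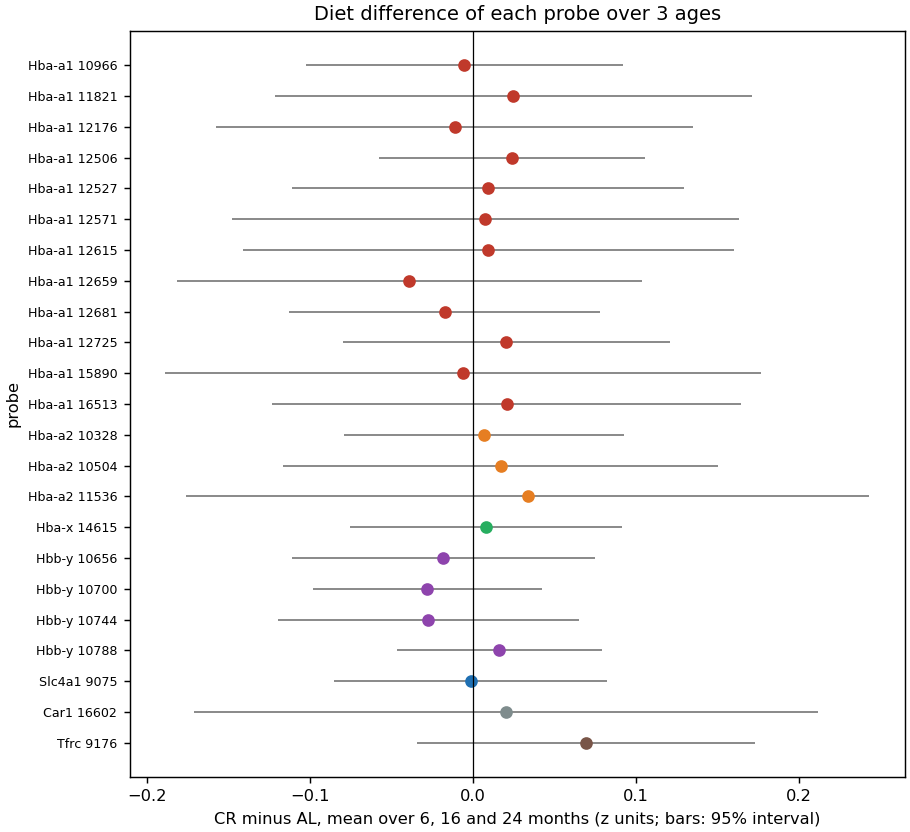
Difference between CR and AL over 6, 16 and 24 months (horizontal axis, z units) for each of the 23 probes, with 95% intervals as bars and colors for the genes. The points lie between -0.04 and 0.07 and every interval holds 0.

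Between males and females of the 6 adult groups, Slc4a1 differed by -0.09 (limma unadjusted p = 0.0290, adjusted p = 1.00), with values from -0.41 to 0.02 in males, against -0.54 to 0.20 in females, and it was 1 of 23 probes at an unadjusted p under 0.05, where 0.971% of all probes were (0% passed). The differences of all 23 probes lay between -0.09 and 0.05. Slc4a1 lies in row 5 of the filter. In rows 1 to 7, all 8 globin and red cell probes were below 0 between the sexes, as were 70.2% of 2456 other probes. In rows 8 to 16 and 17 to 24, 3 of 6 and 3 of 9 were below 0, as were 43.5% and 44.7% of other probes.

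Probes of the same globin were next compared with each other across mice, within each batch. Of the 253 pairs among the 23 probes, 66 correlated positively and 42 negatively in the later batch (n = 22), and 67 and 22 in the earlier batch (n = 44, the near-identical arrays entered once), at a permutation p adjusted over the 253 pairs under 0.05 for Pearson's r (100000 resamples, two-sided). All probes of a pair share the array and its hybridization. Such a count was not made for all pairs of probes. As deposited, the median r of the 253 pairs was 0.01 in the later batch, with 51.4% above 0. In the earlier batch it was 0.12, with 62.8% above 0. All pairs of probes had medians of 0.00 and -0.01 in the later and earlier batch, with 50.2% and 49.2% above 0. Among the 105 pairs of adult alpha-globin probes the sign depended on the rows. Pairs with both probes in rows 1 to 7 had a median r of 0.86 in the later and 0.57 in the earlier batch, and pairs with both in rows 17 to 24 had 0.71 and 0.33. Pairs that joined rows 1 to 7 with rows 17 to 24 had a median of -0.55 in the later batch, where 0 of 40 were above 0, and -0.06 in the earlier batch. All other probes of the array showed the same order, with medians of 0.61, 0.38 and -0.46 for these 3 kinds of pair in the later batch and 0.26, 0.13 and -0.18 in the earlier one.

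Hba-a1 probes 12176 and 12659, in rows 2 and 24, had r = -0.70 in the later batch (rho = -0.76, permutation p = 0.00027 and 0.0001, adjusted 0.00163 and 0.0011, r = -0.70 without the 2 mice farthest from the median) although both are annotated to the same gene. In the earlier batch r was -0.33 (rho = -0.40, permutation p = 0.0323 and 0.00884, adjusted 0.0792 and 0.0255, r = -0.27 without 2 mice). Hba-a1 probes 12571 and 12615, in rows 20 and 22, had r = 0.84 in the later batch (rho = 0.84, r = 0.78 without 2 mice) and 0.81 in the earlier batch (rho = 0.79, r = 0.75 without 2 mice), each with a permutation p of 1e-05, the smallest that the resamples can give. After the correction for neighbors, the pair 12176 and 12659 had r = -0.08 and -0.15 in the later and earlier batch, and the pair 12571 and 12615 kept 0.76 and 0.84. Over all 105 adult alpha-globin pairs the median r after the correction was 0.26 in the later batch, with 83.8% above 0, and 0.25 in the earlier batch, with 72.4% above 0. The median still differed by rows, at 0.41 and 0.39 for pairs with both probes in rows 17 to 24. Pairs with both in rows 1 to 7 had 0.17 and 0.30, and pairs that joined these rows had 0.20 and 0.07. The 767 pairs of probes that share any other gene had medians of 0.03 and 0.02, and all pairs of probes a median of 0.00 in both. These other pairs were not matched for place on the filter. Probes 12571 and 12615 lie in the same block and column (8 and 9), and so do Hba-a1 probes 12527 and 12659. Hba-a1 probes 12681 and 12725 lie in column 9 of block 9.

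**Figure D5:**
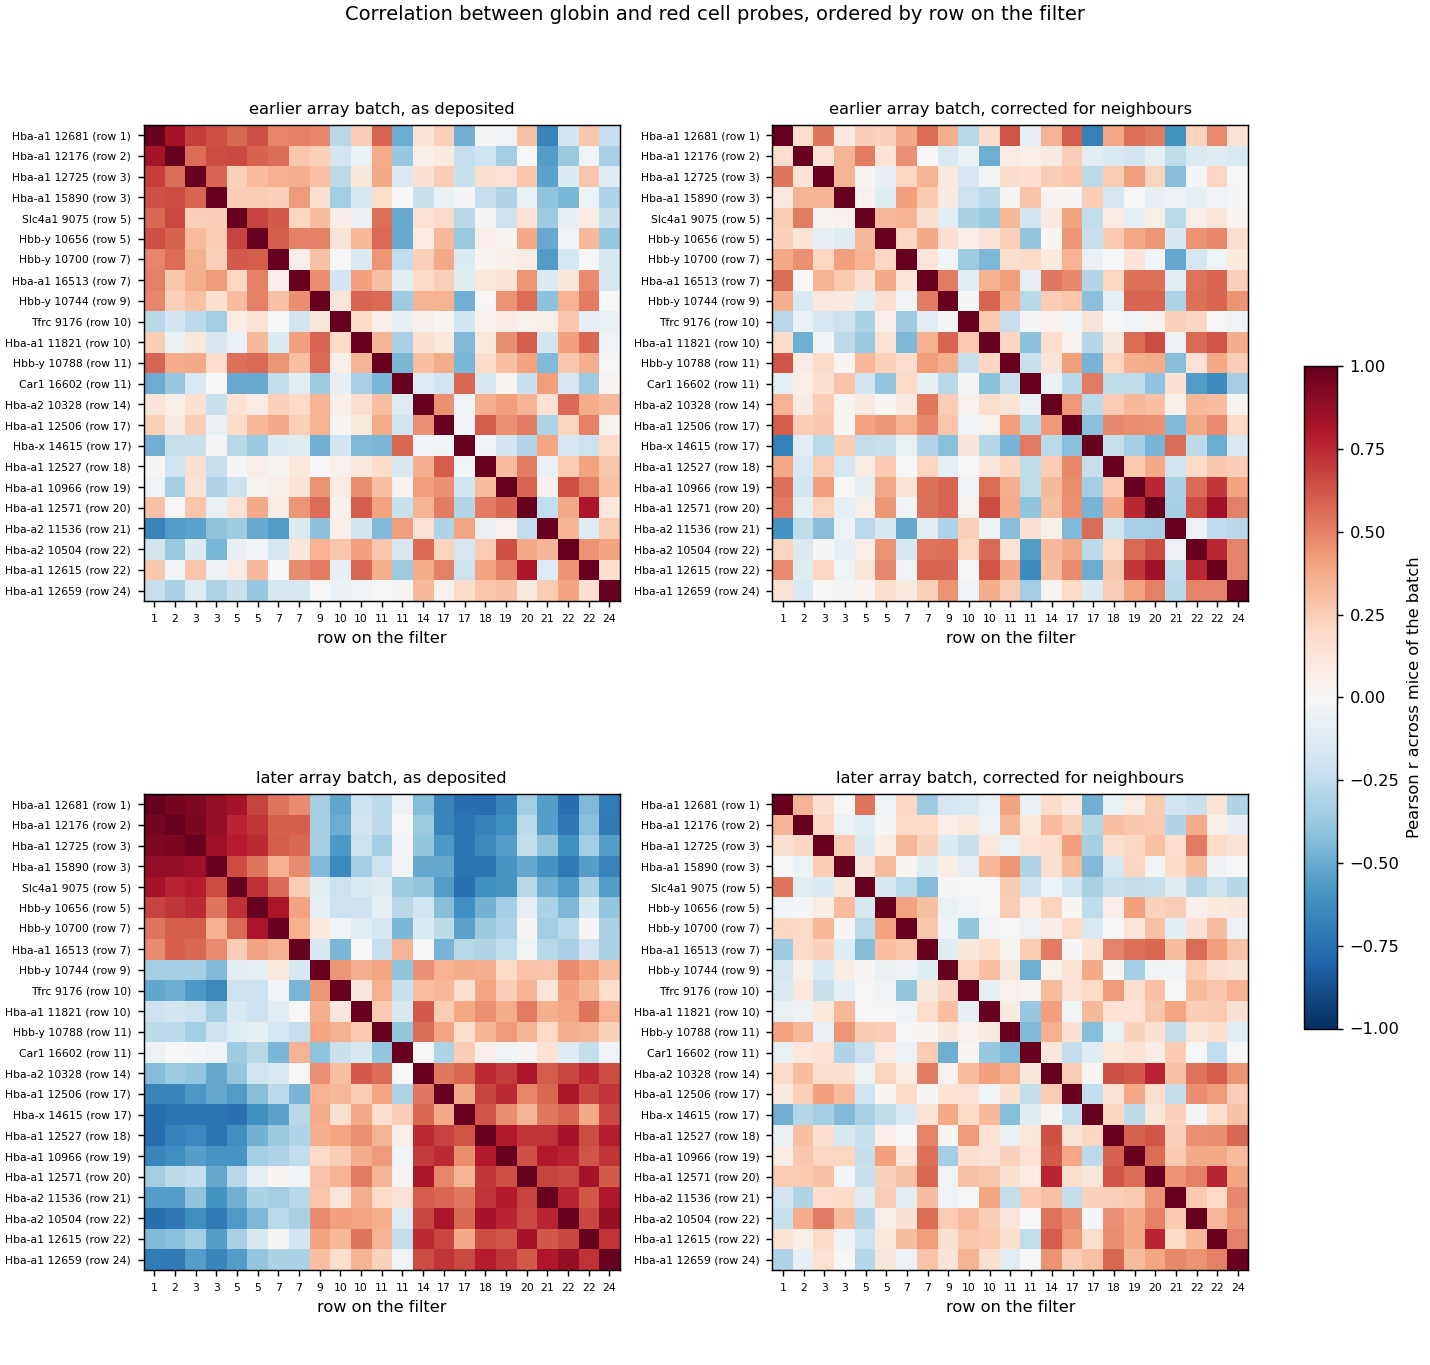
Pearson correlation across mice (color, -1 to 1) between the 23 probes, ordered by row on the filter down and across, in the earlier (top) and later (bottom) array batch, as deposited (left) and corrected for neighboring probes (right). In the later batch as deposited, low and high rows form blocks of opposite sign, and after the correction positive (red) squares remain among the adult alpha-globin probes.

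After the correction, some adult alpha-globin pairs had negative values. Hba-a2 probe 11536 and Hba-a1 probe 12681 had r = -0.60 in the earlier batch after it (-0.66 as deposited). The 4 Hbb-y probes, which all lie in block 5 and column 8, had a median r over their 6 pairs of 0.06 in the later and 0.19 in the earlier batch after the correction. The 3 probes of other genes most like each of the 23, by the correlation of 16 group means after batch means were removed, made 69 nearest probes, of which 44 lay within 4 rows of it, where 33.9% of candidate probes lie. For Hba-a1 probe 12176 they were Cdk19, Prkrip1 and Hbp1 (r = 0.95, 0.94 and 0.94), each within 3 rows.

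Other genes of heme synthesis, the red cell and iron handling did not pass in any of the 15 comparisons (limma). The heme and red cell list had 19 of 69 genes measured, by 21 probes, and the iron list 4 of 31 genes, by 6 probes. Between 33-44 days and 17-21 days, 11 heme and red cell probes were above 0 and 10 below, with a median of 0.07, beside 0.00 for all probes. The smallest p belonged to probe 11542 of Bpgm, which makes the 2,3-bisphosphoglycerate that lowers the oxygen affinity of hemoglobin, at 0.46 (adjusted p = 0.345, against -0.11 and 0.772 at its other probe, 12434), and to Cat, catalase, at -0.21 (adjusted p = 0.357). Over CR against AL the median was 0.02, and Hebp1 (heme-binding protein 1, -0.05) and Bnip3l (a mitophagy receptor needed in maturing red cells, 0.05 at probe 12962 and -0.02 at probe 14029) had the smallest p (adjusted p = 1.00 for each). Between 24 and 6 months in AL mice these were Fech, the last enzyme of heme synthesis, at 0.10, and Add1, adducin of the membrane skeleton, at 0.11 (adjusted p = 1.00 for each). Of the iron list, Lrp1, a receptor that also takes up heme bound to hemopexin, differed by 0.25 at probe 11587 and -0.08 at probe 8629 between 33-44 and 17-21 days (adjusted p = 0.375 and 0.646). Ltf, lactotransferrin, differed by 0.27 and 0.23 at its probes 8652 and 10258 (adjusted p = 0.538 and 0.462), and Slc40a1, the iron exporter ferroportin, by -0.08 between CR and AL (adjusted p = 1.00). Elsewhere an unadjusted p under 0.05 was reached by Abcb10, a mitochondrial transporter needed for heme synthesis, with 0.26 between 16 and 6 months in AL mice and 0.29 between 24 and 16 months in CR mice, and by Prdx2, an abundant peroxidase of red cells, with 0.22 between 24 and 16 months in AL mice (adjusted p = 0.999, 0.999 and 0.757). Lrp1 reached it by probe 11587 between 6 months and 17-21 days (0.24) and by probe 8629 between 16 and 6 months in CR mice (0.17) and between males and females (-0.09), with adjusted p = 0.815, 1.00 and 1.00, while the other probe differed by 0.03, -0.01 and 0.01 in these comparisons. Alas2, the heme synthesis enzyme of red cell precursors, was among the measured genes that did not reach an unadjusted p under 0.05 in any comparison.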

How the data were processed

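Cortex RNA of each mouse was radiolabeled (33P per the labels, 32P in the study's methods) and hybridized to a cDNA filter. The deposited value is a score: per the labels and methods, the authors turned the log intensities of each array into a z-score. The log base and any background correction are not given in the sources used, and no intensities or depth were used. Probes of a gene were kept apart. Every probe of the 7 genes was tested, but not every one is named in the text.

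A mean was fitted for each of 16 age, diet and sex groups over 67 arrays with limma 3.58.1 in R 4.3.3, and 15 comparisons were tested by eBayes (two-sided, Benjamini-Hochberg over 8448 probes, threshold 0.05). Sexes had equal weight. Replicates are separate mice by their labels, and both near-identical arrays entered the fit as such. On simulated data, 57% of differences of 0.5 and 91% of differences of 1 were recovered between 33-44 and 17-21 days. The simulated noise was independent between probes and arrays, without batch or row effects, so these rates do not cover such effects. Filter positions were inferred from probe order. The neighbor correction used probes within 2 rows and 2 columns in the same and adjacent blocks, leaving out the probe and the 23 probes, and removed 34.7% of the within-batch variance of all probes. The genes, lists and tests were chosen with earlier results of these data known. All 23 probes matched the RefSeq gene table (GRCm38.p6) by gene number; 3 probes that list several adult beta-globin genes were left out. Alternatives covered normalization, centering, a filter on low values, the samples fitted, batch, cycle, neighbors, near-identical arrays, a conflicting label (1 male of 24 months AL), each array left out, and the selection of the study's methods (z-ratio of at least 1.5 in size, mean z above 0, unadjusted p under 0.05).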

Additional observations from a re-analysis of the deposited data

Results flagged for a closer look

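Of 184 groups examined (23 probes in 8 age and diet groups), 8 held a mouse whose gap to the nearest other value took up an unusually large part of the range of the group; chance flags about 1 group in 20. All 8 were the lowest value of their group. At 17-21 days AL, female replicate 2 stood apart at 3 probes: Hba-a1 probe 12681 (-0.04, next 0.34), Hba-a1 probe 12725 (-0.22, next 0.15) and Slc4a1 (-0.31, next 0.02). These 3 probes lie in rows 1 to 5 of the filter, and without that mouse 3 of the 23 probes and 0.852% of all 8448 passed between 33-44 and 17-21 days, against 1 and 0.0947% with it. In 6 months AL mice, Hba-a1 probe 12506 was at -0.23 in female replicate 5 (next -0.01), probe 12725 at -0.38 in male replicate 2 (next -0.02) and probe 15890 at -0.20 in male replicate 5 (next 0.31). Hba-a1 probe 12506 was at -0.29 in 16 months AL male replicate 1 (next -0.02), and Hbb-y probe 10788 at -0.40 in 6 months CR male replicate 3 (next -0.18).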

How the results depend on the processing

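The number of the 23 probes past the threshold between 33-44 and 17-21 days was 1 as reported, 0 when only the compared groups were fitted, within the earlier batch, with the array cycle as a block, after the neighbor correction, with that correction plus cycle and batch, and (chosen after seeing the data) with that correction within the earlier batch; it was 3 with the batch as a block, where 0.829% of all probes passed against 0.0947% as reported, and from 0 to 4 when leaving out 1 array, where 0% to 5.22% of all probes passed. Between 6 months and 33-44 days the number was 0, and from 0 to 1 when leaving out 1 array. It was 1 without 33-44 days male replicate 2 or female replicate 1, where 0.497% and 0.107% of all probes passed. By the first steps of the study's selection it was 1 (Hbb-y probe 10700), and 0.639% of all probes met those steps. In the other 13 comparisons it was 0 under every alternative run. No difference of a single probe turned its sign among 303 refits that left out 1 array and 197 others, run for probes with an unadjusted p under 0.05. No paired analysis was possible because the labels give no replicate numbers; the array cycle, which holds at most 1 mouse of each age, diet and sex group, is the block reported above. With 5 mice in each young group and the 17-21 days mice in 1 batch, the young ages have the least precision, and the inferred rows limit the neighbor correction.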
